A study of Arabidopsis thaliana with 18 samples.

Results

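AtBDtr libraries were compared with AtBD libraries, both made from developing Arabidopsis thaliana seeds of the badc1/badc3 double knockout. Of the 33602 genes of the count table, the 19376 with enough counts were tested, and those that rose or fell are described by the tissue or pathway in which they are known to act. The comparison used 6 of the 18 libraries of the series, 3 titled AtBDtr and 3 titled AtBD. Seeds of both groups were taken 9 to 10 days after flowering from plants grown under 16 h of light, and both groups carry T-DNA insertions in BADC1 and BADC3, so the mutation is shared and is not what differs between them. The labels do not spell out "tr". The series text describes ribosome-associated RNA pulled down with anti-FLAG gel from Col-0 and badc1/3 plants that carry HF-RPL18, a ribosomal protein with a histidine and FLAG tag driven by a soybean glycinin promoter and introduced by floral dip with a DsRed marker. No label ties this material to the AtBDtr titles, none says whether the AtBD plants carry the transgene, and the extraction label reads the same for both groups (a total RNA kit followed by a stranded polyA library). The groups are therefore called AtBDtr and AtBD throughout. The corresponding Col-0 groups, AtWTtr and AtWT, with 3 libraries each, served as a second pair that shares no library with the first.

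Plastid acetyl-CoA carboxylase makes the building block from which fatty acids are extended. BADC proteins look like its biotin carrier subunit, lack the biotin itself and slow the enzyme down. At this stage the Arabidopsis embryo fills protein storage vacuoles and oil bodies under the transcription factors ABI3, FUS3, LEC1 and LEC2, then acquires desiccation tolerance. The embryo lies within a thin endosperm and a maternal seed coat whose layers make mucilage, flavonoids and suberin and unload sugars and amino acids from the phloem. Glycinin is a storage globulin of soybean seeds.

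Between 17700289 and 26037413 reads were counted in genes per library. The totals were 18677584, 26037413 and 19785751 in AtBDtr replicates 1, 2 and 3, against 22052175, 20433289 and 17700289 in AtBD. The 10 genes with the most counts took 51.9%, 54.0% and 46.7% of the counts in AtBDtr, against 35.6%, 33.7% and 31.6% in AtBD, and fewer genes had any count in AtBDtr (18748 to 19984) than in AtBD replicates 1 and 2 (21361 and 21503), with 20096 in AtBD replicate 3. Reads in no annotated gene made up 8.88%, 4.03% and 0.659% in AtBDtr, against 2.87%, 2.78% and 5.49% in AtBD, and reads with several matches 13.8%, 5.88% and 1.404%, against 4.36%, 4.38% and 10.07%. AtBDtr replicate 1 and AtBD replicate 3 thus had the highest of both shares in their groups (values without them are given beside several results). AtBDtr replicate 3 stood apart too, with the lowest of both shares among the libraries compared. On log2 CPM the libraries correlated at 0.929 to 0.950 within AtBDtr and 0.932 to 0.971 within AtBD, and at 0.794 to 0.875 between the groups, across genes. The labels do not say whether replicates were separate plants, so p-values measure the spread between these libraries, which may be technical.

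Levels are given as CPM, the usual scaling of counts to library size, here with TMM-adjusted sizes, which sets the bulk of genes equal between libraries. With more of each AtBDtr library taken by a few genes, TMM raised the other genes of AtBDtr relative to plain library totals. The median log2 fold change over all tested genes was -0.03 with TMM and -0.73 on library totals alone, so a fold change here is relative to the typical gene, and a share of counts is not the same scale as CPM. Among the rises named below, those of PAP85, CRU2, SESA2, BETA-VPE, OLEO2, FUS3, ABI5, bZIP67, AHG3, CYP707A1, ACP1, FAB2, DGAT1, FAD3, PAH2, SBE2.1, UMAMIT24, SOS5, JAZ10, ERO1, CYCB3;1, HTA1, AT2G32220 and AT2G36160 did not pass the test on library totals alone. CPM values are not divided by gene length and are compared between libraries. Because whole seeds were used, fewer cells of a type and less RNA per cell cannot be told apart. If AtBDtr were the pulled-down RNA described above, a difference in the RNA captured could not be told apart from these either.

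Of 19376 genes tested, 5755 (29.7%) passed an adjusted p of 0.05 in edgeR's quasi-likelihood test, 2479 higher in AtBDtr (12.8%) and 3276 lower (16.9%). On library totals alone the split was 424 higher and 7393 lower. The falls were larger than the rises: 1252 genes rose and 2830 fell by at least 1 on the log2 scale, and 102 rose and 1219 fell by at least 3. The 3 AtBDtr libraries did not overlap the 3 AtBD libraries in 9100 genes (47.0%). Without AtBDtr replicate 1, 1692 genes rose and 2622 fell, 1646 and 2505 of them also called with all libraries. Without that library and AtBD replicate 3, 1253 rose and 2331 fell. Without AtBDtr replicate 3 alone, 2125 rose and 3340 fell. The shares over all genes tested, 12.8% higher and 16.9% lower, are the background for the counts of called members given below.

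**Figure D1:**
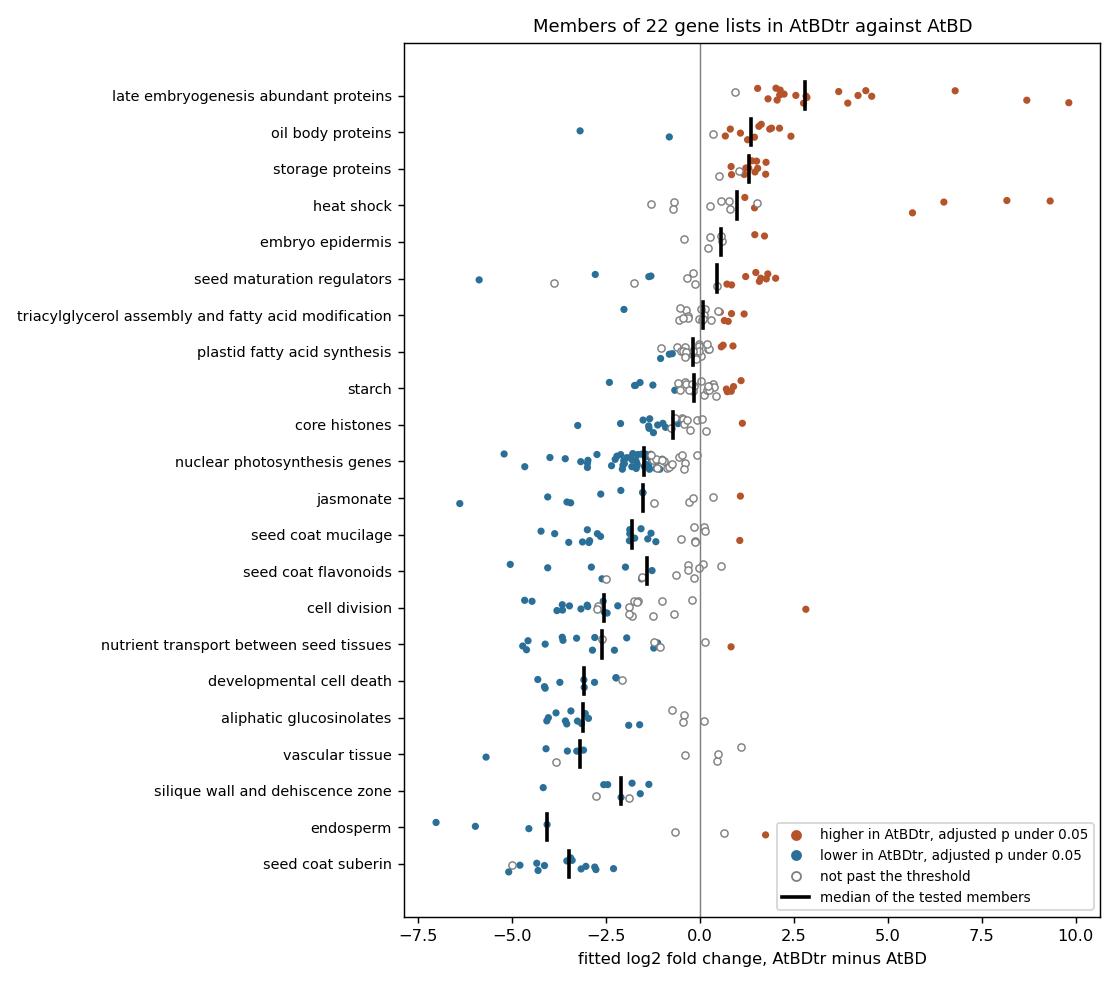
Fitted log2 fold change, AtBDtr minus AtBD (x axis), of the tested members of 22 gene lists (rows), where each point is a gene, filled when its adjusted p was under 0.05, and black bars are medians. Late embryogenesis abundant, oil body and storage protein genes lie to the right (medians 2.79, 1.36 and 1.302) and suberin, cell death and glucosinolate genes to the left (medians -3.49, -3.08 and -3.10), while the medians of the embryo epidermis, seed maturation regulators and triacylglycerol lists change sign on library totals alone (-0.14, -0.27 and -0.63).

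The targeted genes were examined first. BADC1 (AT3G56130, TAIR10.1 chr3:20826576-20829270, plus strand) had 3.13, 2.19 and 1.32 CPM in AtBDtr, against 1.65, 2.61 and 1.61 CPM in AtBD, and BADC3 (AT3G15690, chr3:5316916-5320121, plus strand) had 0.235, 0.461 and 0.1102 CPM in AtBDtr, against 0.154, 0.0791 and 0.696 CPM in AtBD. In Col-0 the levels were far higher: BADC1 had 72.02, 42.3 and 62.9 CPM in AtWTtr, against 79.95, 65.7 and 66.2 CPM in AtWT, and BADC3 had 98.9, 65.6 and 90.8 CPM in AtWTtr, against 82.05, 67.5 and 67.7 CPM in AtWT. All 6 badc1/badc3 libraries were below all 6 Col-0 libraries for both genes. Between AtBDtr and AtBD neither gene differed by the test (adjusted p = 0.76 for BADC1 and 0.89 for BADC3), and the direction of each depended on which library was left out.

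The RPL18 family, whose product carries the tag in the series text, was examined next. RPL18B (AT3G05590, chr3:1621355-1623052, plus strand), a protein of the large ribosomal subunit, had 21064, 18606 and 17616 CPM in AtBDtr, against 1029, 972 and 862 CPM in AtBD, a 20.0-fold difference (log2 fold change 4.32, SE 0.27, adjusted p = 9.1e-08). All 3 AtBDtr libraries were above all AtBD libraries. RPL18C (AT5G27850) had 275, 380.5 and 352 CPM in AtBDtr, against 239, 244 and 368 CPM in AtBD and did not pass the test (log2 fold change 0.24, SE 0.27, adjusted p = 0.54). Reads of a transgene with the same coding sequence would be counted with the native gene, and the table cannot separate them. RPL18B was also higher in AtWTtr than in AtWT, by 4.297 on the log2 scale.

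**Figure D2:**
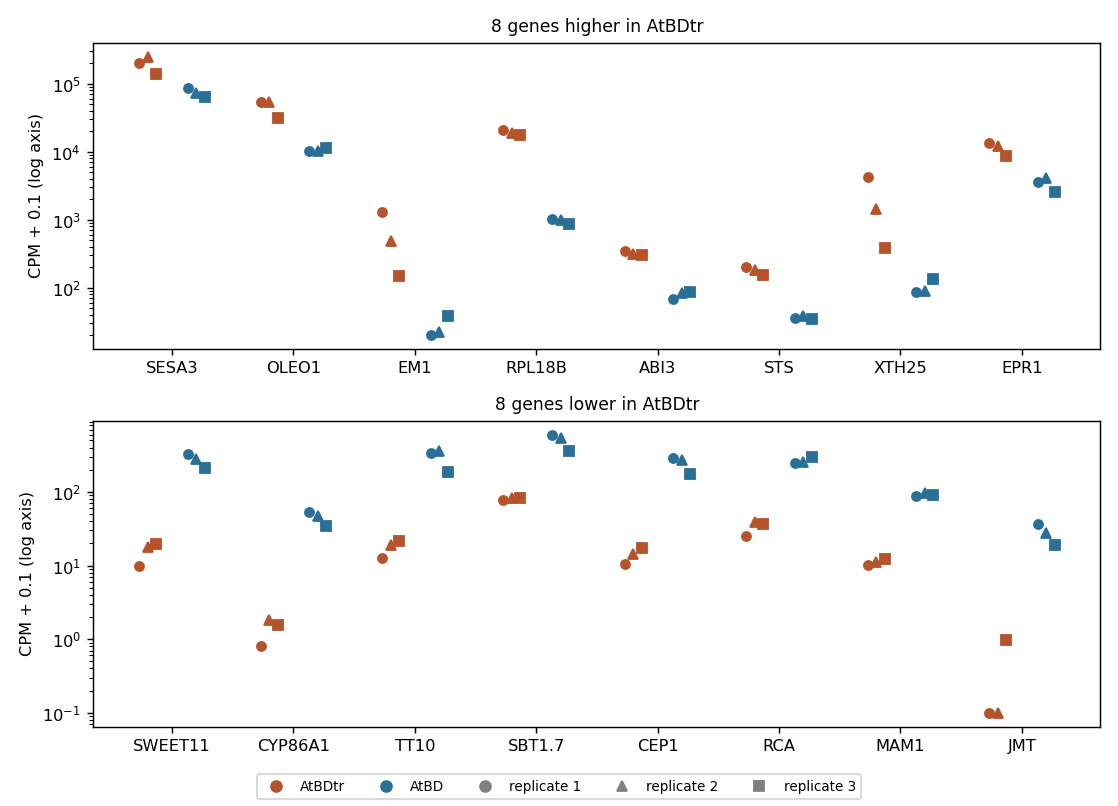
CPM plus 0.1 on a log axis (y) in each AtBDtr (brown, left) and AtBD (blue, right) library for 8 genes higher and 8 genes lower in AtBDtr, with circles, triangles and squares for replicates 1, 2 and 3. In all 16 genes the 3 AtBDtr points lie apart from the 3 AtBD points, and EM1 and XTH25 also spread widely among the AtBDtr libraries. Over all genes tested the libraries did not overlap in 47.0%.

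Storage protein genes rose together. Of 13 listed and tested, 11 passed the test as higher in AtBDtr, none as lower, and the median log2 fold change was 1.302 (7 higher on library totals alone, median 0.55). Together they took 45.9%, 49.8% and 43.4% of all gene counts in AtBDtr, against 33.0%, 30.8% and 29.0% in AtBD. The lowest AtBDtr share thus exceeded the highest AtBD share, and the exact two-sided permutation test gave p = 0.1, the smallest it can give with 3 libraries against 3. SESA3, a 2S albumin, had 197947, 248580.0 and 138069 CPM in AtBDtr, against 86845, 73392 and 64130.0 CPM in AtBD (log2 fold change 1.38, SE 0.33, adjusted p = 0.0056). CRC, a 12S cruciferin also known as CRU3, had 127264, 117056 and 73413 CPM in AtBDtr, against 35654, 34072 and 23904 CPM in AtBD (log2 fold change 1.76, SE 0.32, adjusted p = 0.0009). The cupin gene AT2G28490 had 6374, 6209 and 4970.4 CPM in AtBDtr, against 1562, 1703 and 1944 CPM in AtBD and the smallest adjusted p of the list (log2 fold change 1.75, SE 0.22, adjusted p = 3.3e-05). The cruciferins CRA1, CRU2 and CRD rose by 1.47, 1.18 and 1.302, SESA1 by 1.51 and the vicilin-like PAP85 by 0.84 on the log2 scale, a call lost without AtBDtr replicate 1 (adjusted p = 0.064). SESA2 passed narrowly (0.83, adjusted p = 0.048) and lost its call under 13 of the 17 other settings that gave it a value.

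Of 10 genes of the storage vacuole 4 rose and 4 fell (2 and 5 on library totals alone). TIP3;1 and TIP3;2, aquaporins of the seed vacuole membrane, rose by 1.96 and 2.12. TIP3;1 had 6218, 5676 and 2859.7 CPM in AtBDtr, against 1310.2, 1245 and 1243 CPM in AtBD. BETA-VPE, the vacuolar processing enzyme that cleaves storage protein precursors in the embryo, had 1150.1, 867 and 854 CPM in AtBDtr, against 497, 547 and 557 CPM in AtBD (log2 fold change 0.84, SE 0.21, adjusted p = 0.0075). Its log2 fold change was 0.11 on library totals alone (adjusted p = 0.71), and its call was also lost without AtBDtr replicate 1 and AtBD replicate 3 together. The other vacuolar processing enzymes fell. DELTA-VPE, which acts in the seed coat layers that die early, had 8.602, 13.4 and 23.7 CPM in AtBDtr, against 329, 292 and 225 CPM in AtBD (log2 fold change -4.20, SE 0.34, adjusted p = 5.4e-07), ALPHA-VPE fell by 2.26 and GAMMA-VPE by 1.29 on the log2 scale. RD21A, a cysteine protease, had 30.3, 23.59 and 22.4 CPM in AtBDtr, against 394, 452 and 332 CPM in AtBD. These 4 proteases are the members of the list that fell, and their AtBDtr libraries lay below the AtBD libraries without overlap. Over all genes tested, 47.0% did not overlap in either direction. The list median, 0.15, turned to -0.56 on library totals alone.

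Genes of oil body proteins rose with the storage proteins, with 11 of 14 tested members higher, 2 lower and a median of 1.36 (6 higher on library totals alone, median 0.62). They took 7.15%, 6.97% and 6.13% of counts in AtBDtr, against 3.67%, 3.71% and 4.23% in AtBD (exact permutation p = 0.1). OLEO1, one of the oleosins that coat seed oil bodies, had 53848, 53427 and 31467 CPM in AtBDtr, against 10335, 10329 and 11246 CPM in AtBD (log2 fold change 2.12, SE 0.30, adjusted p = 0.0001). OLEO2 and OLEO4 rose by 1.27 and 1.57, the oleosin-family gene AT3G18570 by 1.86, the caleosin CLO1 by 1.45 and the steroleosin HSD5 by 1.63. SEIPIN1, which shapes oil bodies as they bud from the endoplasmic reticulum, had 36.1, 19.4 and 15.6 CPM in AtBDtr, against 4.995, 5.66 and 8.27 CPM in AtBD, a rise of 1.91. Both members that fell are known outside the maturing embryo. RD20, a caleosin induced by drought in leaves, had 20.9, 18.7 and 10.8 CPM in AtBDtr, against 128, 146 and 183 CPM in AtBD (log2 fold change -3.18, SE 0.31, adjusted p = 3.1e-06), and LDAP1, a lipid droplet protein of vegetative tissues, fell by 0.81 (adjusted p = 0.014, but 0.057 without AtBDtr replicate 1 and 0.060 without AtBD replicate 3).

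Late embryogenesis abundant (LEA) proteins accumulate as seeds prepare to dry. Of 22 genes listed 20 were tested, 19 rose, none fell, and the median was 2.79 (1.99 on library totals alone and 1.85 without AtBDtr replicate 1, with 19 higher in each). Among the AtBDtr libraries all 20 were highest in replicate 1, which set much of the size, and lowest in replicate 3. EM1 had 1292, 478 and 147 CPM in AtBDtr, against 20.3, 21.9 and 38.3 CPM in AtBD (log2 fold change 4.57, SE 0.71, adjusted p = 0.00024). EM6, also named GEA6, had 601, 32.5 and 3.97 CPM in AtBDtr, against 0.115, 0.198 and 0.392 CPM in AtBD, a fitted log2 fold change of 9.82 with an SE of 1.88 that became 6.25 without AtBDtr replicate 1. RAB18, a dehydrin, had 2607, 629 and 183 CPM in AtBDtr, against 53.8, 51.5 and 79.4 CPM in AtBD. In each of these genes even the lowest AtBDtr library was above the highest AtBD library. PER1, a seed peroxiredoxin, was more even among the AtBDtr libraries, with 5224, 3642 and 2386 CPM in AtBDtr, against 1179, 1127 and 1565 CPM in AtBD (log2 fold change 1.54, SE 0.29, adjusted p = 0.0012). LEA4-5 rose by 3.69, LEA25 by 4.42, AT2G21490 by 2.06, AT4G21020 by 2.13 and AT1G72100 by 2.83. The list took 1.77%, 0.807% and 0.682% of counts in AtBDtr, against 0.348%, 0.352% and 0.480% in AtBD.

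Some genes of the heat shock response that the seed program also uses rose with the LEA genes, but fewer of them and with more spread. The list held 0.117%, 0.0435% and 0.0425% of counts in AtBDtr, against 0.0477%, 0.0497% and 0.0521% in AtBD. These shares overlap, with only AtBDtr replicate 1 above AtBD. Of 17 listed 14 were tested, 6 rose and none fell, and without AtBDtr replicate 1 only 3 rose and the median was 0.40 in place of 0.998. HSFA9, a heat shock factor made in maturing seeds, had 31.9, 2.08 and 0.331 CPM in AtBDtr, against 0, 0.356 and 0 CPM in AtBD, and its call was lost without AtBDtr replicate 1 among other settings. The small heat shock protein genes HSP17.4 and HSP17.6A had 453, 60.7 and 9.202 CPM in AtBDtr, against 4.03, 3.798 and 2.48 CPM in AtBD, and 353, 25.8 and 1.32 CPM in AtBDtr, against 0.384, 0.198 and 0.74 CPM in AtBD, so most of their difference lay in 1 library. HSP17.6C had 122, 12 and 2 counts in AtBDtr, against 0 counts in all AtBD libraries, and its call was lost without AtBDtr replicate 1. HSP101, the disaggregating chaperone, differed more evenly, with 118, 71.2 and 71.2 CPM in AtBDtr, against 32.7, 32.3 and 29.7 CPM in AtBD (log2 fold change 1.46, SE 0.27, adjusted p = 0.00095).

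**Figure D3:**
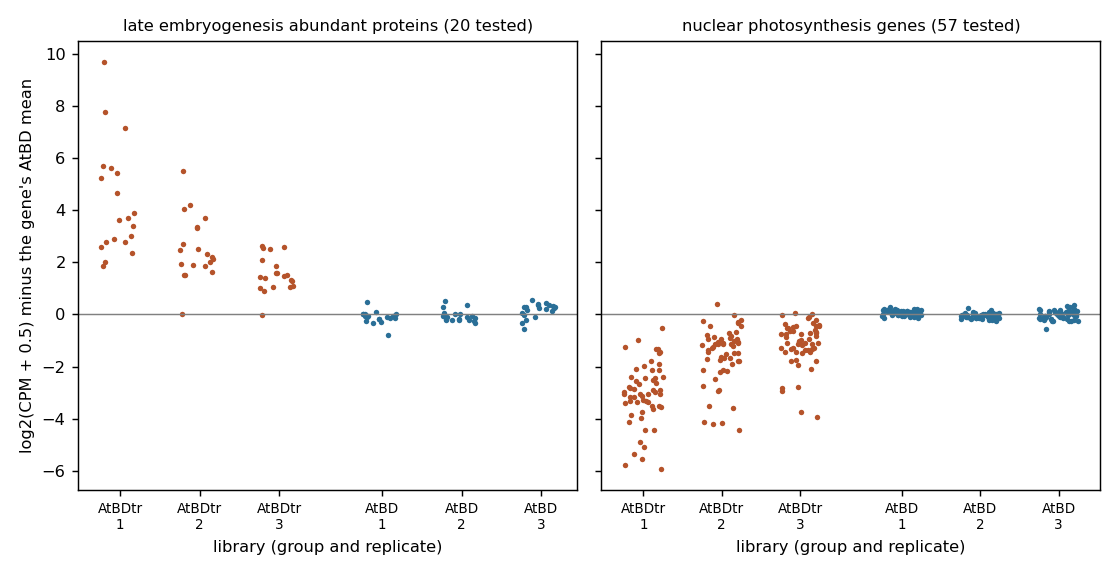
log2(CPM + 0.5) minus the gene's mean over the AtBD libraries (y axis) in each library (x axis), where each point is a tested gene of the LEA list (20, left panel) or the photosynthesis list (57, right panel). All 20 LEA genes are highest and all 57 photosynthesis genes lowest in AtBDtr replicate 1, and AtBDtr replicates 2 and 3 lie on the same side of the AtBD libraries for most genes.

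Transcription factors of seed maturation changed in both directions: of 19 tested, 9 rose and 4 fell, with a median of 0.45 that turned to -0.27 on library totals alone (5 rose and 9 fell there). ABI3, the B3 factor that activates storage protein and LEA genes, had 351, 311 and 298 CPM in AtBDtr, against 68.4, 83.2 and 85.4 CPM in AtBD (log2 fold change 2.02, SE 0.22, adjusted p = 7.4e-06). DOG1, which sets seed dormancy, had 375, 393 and 228 CPM in AtBDtr, against 91.8, 87.6 and 104 CPM in AtBD (log2 fold change 1.81, SE 0.22, adjusted p = 3e-05). The AtBDtr libraries of both genes exceeded every AtBD library by a wide margin. FUS3, another B3 factor, rose by 0.85, and the bZIP factors ABI5 and bZIP67 by 1.77 and 1.22. HSI2 and HSL1, repressors that end the maturation program in seedlings, rose by 1.58 and 1.49. LEC1, a NF-YB factor of earlier embryo development, went the other way with 0, 0 and 0.386 CPM in AtBDtr, against 8.84, 10.6 and 6.44 CPM in AtBD (log2 fold change -5.87, SE 0.73, adjusted p = 3.3e-05). Its close relative NF-YB6 had 40.4, 114 and 156 CPM in AtBDtr, against 270.3, 256 and 268 CPM in AtBD (log2 fold change -1.36, SE 0.41, adjusted p = 0.023), a call lost without AtBDtr replicate 1. bZIP25 fell by 1.2998 and WRI3 by 2.78 on the log2 scale. WRI1, the main activator of fatty acid synthesis genes in seeds, had 105, 180.2 and 152 CPM in AtBDtr, against 154, 155 and 168 CPM in AtBD and did not pass (log2 fold change -0.13, adjusted p = 0.69).

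Of 17 tested genes for abscisic acid synthesis, breakdown and its protein phosphatases, 4 rose and 4 fell (median 0.63, and -0.08 on library totals alone). NCED6, a synthesis gene of the endosperm, had 3.44, 1.33 and 2.42 CPM in AtBDtr, against 16.9, 13.9 and 9.23 CPM in AtBD (log2 fold change -2.49, SE 0.33, adjusted p = 5e-05). The phosphatase gene AHG1, which acts in seeds, had 47.8, 21.1 and 12.6 CPM in AtBDtr, against 6.76, 3.84 and 2.96 CPM in AtBD (log2 fold change 2.58, SE 0.51, adjusted p = 0.0017), and AHG3 rose by 0.91. ABI1, a phosphatase of the same family, had 7.74, 9.29 and 3.53 CPM in AtBDtr, against 17.9, 20.6 and 22.98 CPM in AtBD and fell by 1.58 on the log2 scale. CYP707A1, which breaks abscisic acid down, rose by 0.93 (adjusted p = 0.016).

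B3 factors such as ABI3 and FUS3 bind the RY element (CATGCA), and bZIP factors bind the G-box (CACGTG), so both motifs were looked for in the 250 bases upstream of each gene's start, on both strands and counting overlapping matches. The RY element occurred in 1491 of 18909 promoters of tested genes (7.89%), in 10.3% of genes that rose, 9.01% of genes that fell and 7.16% of the rest. The G-box occurred in 1480 (7.83%), in 12.7% of genes that rose, 7.77% of genes that fell and 6.93% of the rest. RY was found in 11 of 13 storage protein, 10 of 14 oil body, 6 of 20 LEA and 0 of 14 suberin promoters, and the G-box in 8, 7, 15 and 0 of them. Lists that were lower also held matches: RY was found in 6 of 19 nutrient transport and 5 of 24 mucilage promoters, and the G-box in 12 of 57 photosynthesis and 4 of 16 flavonoid promoters. A match describes the letters only and is no evidence of binding. The promoters of the called storage, oil body, LEA and mucilage genes with the most CPM in AtBDtr are printed 5′ to 3′ to show how the motifs are placed in 3 genes that rose and 1 that fell, from the RefSeq genome (TAIR10.1), with RY and G-box matches in capitals. SESA3 lies at chr4:13611546-13611795 (plus strand, 7 RY matches and 1 G-box), OLEO1 at chr4:12900180-12900429 (plus strand, 3 and 2), PER1 at chr1:17780179-17780428 (plus strand, 0 and 1) and SBT1.7, a mucilage gene that fell, at chr5:26874851-26875100 (minus strand, 0 and 0).
SESA3: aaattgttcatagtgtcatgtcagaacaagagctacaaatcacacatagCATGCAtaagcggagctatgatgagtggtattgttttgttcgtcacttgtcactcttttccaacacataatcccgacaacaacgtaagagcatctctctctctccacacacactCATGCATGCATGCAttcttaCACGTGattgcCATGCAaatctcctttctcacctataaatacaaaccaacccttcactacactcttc
OLEO1: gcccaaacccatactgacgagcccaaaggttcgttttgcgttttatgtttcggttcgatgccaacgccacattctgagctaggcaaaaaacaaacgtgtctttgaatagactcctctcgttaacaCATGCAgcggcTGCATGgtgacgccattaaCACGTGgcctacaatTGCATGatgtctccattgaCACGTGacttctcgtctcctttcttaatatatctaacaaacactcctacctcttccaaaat
PER1: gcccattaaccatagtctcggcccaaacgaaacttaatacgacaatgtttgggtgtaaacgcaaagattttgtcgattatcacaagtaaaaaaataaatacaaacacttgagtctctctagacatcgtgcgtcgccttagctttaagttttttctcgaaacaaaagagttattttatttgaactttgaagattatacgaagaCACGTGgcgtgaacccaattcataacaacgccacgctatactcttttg
SBT1.7: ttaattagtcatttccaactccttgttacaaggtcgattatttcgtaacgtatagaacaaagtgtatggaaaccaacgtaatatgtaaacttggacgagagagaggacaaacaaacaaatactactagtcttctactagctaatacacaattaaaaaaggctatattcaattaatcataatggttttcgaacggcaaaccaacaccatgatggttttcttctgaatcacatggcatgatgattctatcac
The RY matches of SESA3 include overlapping copies on both strands of 1 run of repeats next to the G-box, and in OLEO1 an RY match precedes each of the G-boxes.

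Fatty acid synthesis is the pathway that BADC proteins act on. Of 8 carboxylase and BADC genes tested 1 passed, the plastid-encoded member ATCG00500, with 0, 0.231 and 0 CPM in AtBDtr, against 1.998, 3.88 and 2.74 CPM in AtBD (log2 fold change -5.05, SE 1.16, adjusted p = 0.0055). On library totals alone 4 of the 8 fell (median -0.85). Of 27 genes of plastid fatty acid synthesis 3 rose and 3 fell (11.1% each, against 12.8% and 16.9% of all genes tested). Their median was -0.19 (19 fell and none rose on library totals alone). The acyl carrier protein gene ACP1 had 607, 821 and 785 CPM in AtBDtr, against 402, 367 and 432 CPM in AtBD (log2 fold change 0.88, SE 0.22, adjusted p = 0.0077), and FAB2, the stearoyl desaturase, rose by 0.62, a direction that turned on library totals alone. EMB3003, a subunit of plastid pyruvate dehydrogenase, and LACS9, which activates exported fatty acids, fell by 0.81 and 1.04, and both calls were lost without AtBDtr replicate 1. In shares of counts the fatty acid synthesis list held 0.282%, 0.405% and 0.567% in AtBDtr, against 0.641%, 0.652% and 0.689% in AtBD.

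Of 20 genes of triacylglycerol assembly and fatty acid modification 5 rose and 1 fell, and their median of 0.08 was -0.63 on library totals alone, where none rose and 10 fell. DGAT1, the final acyltransferase, had 102, 104 and 115 CPM in AtBDtr, against 66.1, 70.97 and 66.8 CPM in AtBD (log2 fold change 0.65, SE 0.16, adjusted p = 0.0055), with a log2 fold change of -0.05 on library totals alone. FAD3, the linoleate desaturase of the endoplasmic reticulum, had 1898, 2259.9 and 1817 CPM in AtBDtr, against 1197, 1197 and 1143 CPM in AtBD and rose by 0.76. The phosphatidate phosphatase gene PAH2 rose by 1.18, and AAPT2, which makes phospholipids from diacylglycerol, had 9.77, 12 and 13.6 CPM in AtBDtr, against 49.1, 55.5 and 38.7 CPM in AtBD (log2 fold change -2.02, SE 0.22, adjusted p = 1.1e-05). Among 21 genes of lipid breakdown 5 rose and 4 fell (median 0.06, and -0.67 on library totals alone). The glyoxylate cycle genes ICL and MLS rose: ICL had 620.4, 486 and 341 CPM in AtBDtr, against 195, 195 and 183 CPM in AtBD (log2 fold change 1.33, SE 0.25, adjusted p = 0.0012), and MLS had 221, 95.6 and 42.3 CPM in AtBDtr, against 16.8, 16.6 and 16.9 CPM in AtBD (log2 fold change 2.83, SE 0.53, adjusted p = 0.001). The thiolase gene KAT5 and the peroxisomal malate dehydrogenase gene PMDH2 fell, with log2 fold changes of -1.22 and -3.37.

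Among genes of sucrose cleavage, SUS3 rose while SUS1, SUS6 and CINV1 fell. SUS3, the sucrose synthase known from maturing seeds, had 401, 213 and 141 CPM in AtBDtr, against 51.8, 59.5 and 63.2 CPM in AtBD (log2 fold change 2.11, SE 0.37, adjusted p = 0.00064). SUS1 had 2.27, 1.96 and 3.47 CPM in AtBDtr, against 23.55, 24.6 and 18.6 CPM in AtBD (log2 fold change -3.11, SE 0.29, adjusted p = 1.9e-06), SUS6 fell by 3.12 and the invertase gene CINV1 by 2.23. Over the 22 genes of sucrose breakdown and glycolysis 3 rose (13.6%) and 5 fell (22.7%), against 12.8% and 16.9% of all genes tested. The median of the list was -0.39 (1 rose and 14 fell on library totals alone, median -1.08). GAPC1 fell by 0.91 on the log2 scale (adjusted p = 0.016), a call lost without AtBDtr replicate 1 (-0.68, adjusted p = 0.061). Among 6 genes for raffinose family sugars, which accumulate with desiccation tolerance, the stachyose synthase gene STS had 202, 183 and 152 CPM in AtBDtr, against 36.2, 38.3 and 34.6 CPM in AtBD (log2 fold change 2.297, SE 0.20, adjusted p = 9.8e-07), while GOLS3 and RS5 fell by 4.55 and 1.89. Of 29 starch genes 5 rose (17.2%) and 6 fell (20.7%), near the shares over all genes tested. On library totals alone none of the starch genes rose and 11 fell (median -0.83). SBE2.1, a branching enzyme, rose by 0.90, with 0.20 on library totals alone (adjusted p = 0.56), and DPE2 and BAM1, which degrade starch, and APL4, a subunit of the first enzyme of its synthesis, fell by 1.73, 1.25 and 1.71.

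Genes for transporters and cell wall invertases that supply sugars and amino acids from the seed coat to the embryo mostly fell. Of 19, 14 passed as lower and 1 as higher, with a median of -2.61, and the list held 0.0273%, 0.0314% and 0.0365% of counts in AtBDtr, against 0.152%, 0.149% and 0.115% in AtBD. SWEET11, a sucrose exporter, had 9.697, 17.9 and 19.6 CPM in AtBDtr, against 327, 279 and 212 CPM in AtBD (log2 fold change -4.11, SE 0.28, adjusted p = 1.7e-07). SWEET12 had 1.09, 1.67 and 4.13 CPM in AtBDtr, against 30.5, 30.98 and 27.7 CPM in AtBD (log2 fold change -3.66, SE 0.34, adjusted p = 2e-06). SWEET15, which also works in the endosperm, differed less, with 114, 157 and 91.2 CPM in AtBDtr, against 307, 291 and 189 CPM in AtBD (log2 fold change -1.12, SE 0.29, adjusted p = 0.0099). The amino acid exporters UMAMIT11, UMAMIT18, UMAMIT25 and UMAMIT29 fell by 4.71, 2.79, 2.59 and 3.28, and the amino acid permease gene AAP2 by 3.64. The exception was UMAMIT24, with 54.9, 61.4 and 82.4 CPM in AtBDtr, against 41.4, 40.3 and 29.9 CPM in AtBD (log2 fold change 0.83, SE 0.20, adjusted p = 0.0053). Its call was lost on library totals alone.

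Nuclear photosynthesis genes fell as a group. All 57 listed genes were tested and had a negative fold change, 42 passed as lower, none as higher, and the median was -1.47. Their shares were 0.205%, 0.577% and 0.869% of counts in AtBDtr, against 2.06%, 1.97% and 2.16% in AtBD. All 57 were lowest in AtBDtr replicate 1. Without it 32 passed (median -1.10), and without it and AtBD replicate 3, 25 passed. RCA, which activates Rubisco, had 24.7, 38.9 and 37.1 CPM in AtBDtr, against 243, 256 and 300.5 CPM in AtBD (log2 fold change -2.99, SE 0.26, adjusted p = 1.2e-06). The 4 small subunit genes of Rubisco differed from one another. RBCS3B had 1.56, 5.31 and 7.88 CPM in AtBDtr, against 129, 127 and 121 CPM in AtBD, a log2 fold change of -4.66. RBCS2B and RBCS1B fell by 5.20 and 2.99. RBCS1A had 783, 2049 and 1637 CPM in AtBDtr, against 1754, 1629 and 1311 CPM in AtBD and did not pass (adjusted p = 0.9). These genes share long stretches of sequence, so reads could be divided among them. The light-harvesting gene LHCB1.3 had 95.5, 411 and 622 CPM in AtBDtr, against 1405, 1211 and 1264 CPM in AtBD (adjusted p = 0.026, not below 0.05 without AtBDtr replicate 1), LHCB2.2 fell by 3.99 and PSBO2, of the oxygen-evolving complex, by 2.73.

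Genes encoded in the plastid and the mitochondrion were lower still. Of 133 plastid-encoded genes 74 were tested and 64 fell, and of 146 mitochondrion-encoded genes 39 were tested and 25 fell, with none higher. The fitted medians were -6.07 and -4.50, and with the 30 plastid and 15 mitochondrial genes that had no AtBDtr count set at a floor of 3 counts over the group they were -4.59 and -3.42. The plastid list held 0.00406%, 0.000968% and 0.000409% of counts in AtBDtr, against 0.0537%, 0.0561% and 0.142% in AtBD. ATCG00490 had 2.89, 0.865 and 0.661 CPM in AtBDtr, against 33.9, 35.4 and 93.02 CPM in AtBD (log2 fold change -5.27, SE 0.83, adjusted p = 0.00025), and ATMG00020 had 43.5, 32.6 and 6.67 CPM in AtBDtr, against 447, 507 and 1066 CPM in AtBD (log2 fold change -4.61, SE 0.75, adjusted p = 0.00036). Of 147 non-coding genes tested 3 rose and 19 fell, and their share, most of it from AT3G41768, annotated as ribosomal RNA (532521, 301290 and 36330 counts in AtBDtr, against 104008, 104105 and 250035 counts in AtBD), was 2.90%, 1.2% and 0.224% in AtBDtr, against 0.551%, 0.590% and 1.52% in AtBD, which overlap. The libraries were made from polyA RNA, and AtBD replicate 3 had the highest organelle share. The shares of reads with several matches or in no gene also differed among libraries, and their part in these values was not tested.

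**Figure D4:**
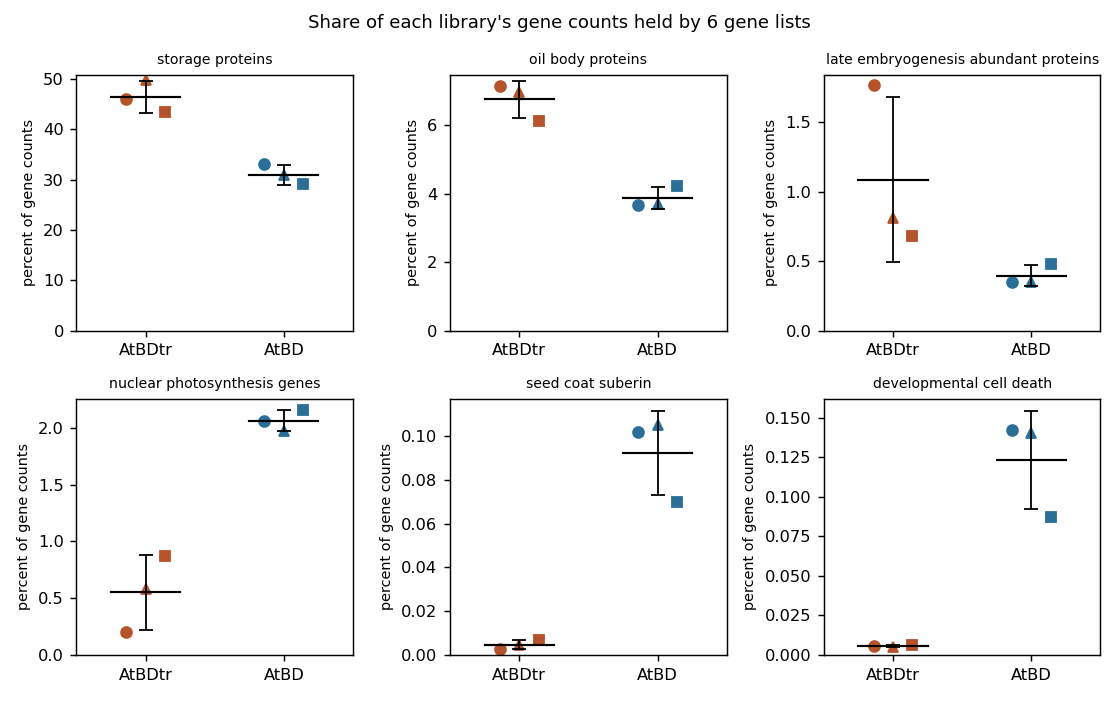
Percent of all gene counts (y axis, from 0) held by 6 gene lists in the AtBDtr (left) and AtBD (right) libraries, with circles, triangles and squares for replicates 1, 2 and 3, lines for the mean and bars for the SD over 3 libraries. Storage, oil body and LEA shares were higher and photosynthesis, suberin and cell death shares lower in every AtBDtr library than in any AtBD library.

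The seed coat lists were mostly lower in AtBDtr. Suberin, the waxy polymer of the inner coat and the chalaza, gave a uniform result: of 14 genes tested 13 fell, none rose, the median was -3.49 and all fold changes lay between -5.08 and -2.29. CYP86A1, a fatty acid hydroxylase of suberin monomer synthesis, had 0.704, 1.73 and 1.43 CPM in AtBDtr, against 53.1, 46.8 and 34.6 CPM in AtBD (log2 fold change -5.08, SE 0.33, adjusted p = 1e-07). GPAT5 and FAR1, which add glycerol to and reduce the monomers, fell by 4.78 and 2.79, and the elongase gene KCS2 by 3.16. ASFT, which attaches ferulate, had 5.79, 13.1 and 16.8 CPM in AtBDtr, against 248, 239.6 and 142 CPM in AtBD, a log2 fold change of -4.13. CYP86B1, the exporter gene ABCG20 and the regulator gene MYB9 fell by 3.40, 3.54 and 3.44. The list's share was 0.00271%, 0.00462% and 0.00665% of counts in AtBDtr, against 0.102%, 0.105% and 0.0701% in AtBD, a mean share 19.8-fold lower in AtBDtr.

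Mucilage is a pectin made by the outermost coat cells. Of 24 genes 17 fell and 1 rose (median -1.80). SBT1.7, a subtilase that lets mucilage out and whose promoter is printed above, had 77.6, 81.7 and 82.3 CPM in AtBDtr, against 598, 547 and 359.9 CPM in AtBD (log2 fold change -2.64, SE 0.24, adjusted p = 1.6e-06). The AtBDtr libraries differed by a few CPM among themselves and all lay below AtBD. MUM2, a galactosidase that modifies the pectin, fell by 2.93, BXL1, a xylosidase, by 3.86, COBL2 by 2.72 and MUM4, which makes its rhamnose precursor, by 1.73. The regulators STK, MYB5 and GL2 fell by 2.95, 2.99 and 1.86. SOS5, an arabinogalactan protein, had 14.5, 23.9 and 21.3 CPM in AtBDtr, against 11.6, 10.9 and 6.14 CPM in AtBD and was the member that rose (log2 fold change 1.06, SE 0.30, adjusted p = 0.015), a call lost without AtBD replicate 3 (0.83, adjusted p = 0.069), without AtBDtr replicate 2 and on library totals alone. Of 16 flavonoid genes tested 7 fell and none rose. TT10, the laccase that browns the coat, had 12.7, 19.1 and 21.6 CPM in AtBDtr, against 334, 360.0 and 189 CPM in AtBD (log2 fold change -4.04, SE 0.34, adjusted p = 8.3e-07). BAN, DFR and LDOX, the late steps towards proanthocyanidins, fell by 5.04, 1.98 and 2.88, and their regulator TT8 by 2.60. CHS, the first enzyme of the pathway, had 536, 941 and 689 CPM in AtBDtr, against 778, 688 and 572 CPM in AtBD and did not pass (adjusted p = 0.83).

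Endosperm genes were divided. Of 14 listed 7 were tested, 4 fell and 1 rose, with a fitted median of -4.06 (-3.52 with the gene at 0 counts in AtBDtr set at the floor of 3 counts). ZOU, which controls the breakdown of the endosperm, had 0.156, 0 and 0.441 CPM in AtBDtr, against 4.19, 3.84 and 2.44 CPM in AtBD (log2 fold change -4.06, SE 0.71, adjusted p = 0.00064). Its target ALE1, a protease that lets the embryo form its cuticle, fell by 4.55, and KRS, a small secreted protein needed to separate embryo and endosperm, by 5.97. MYB115, a regulator of fatty acid desaturation in the endosperm, had 0 counts in all AtBDtr libraries, against 42, 11 and 0 counts in AtBD. EPR1, an extensin-like gene of the micropylar endosperm, had 13483, 12258 and 8576 CPM in AtBDtr, against 3565, 4047 and 2588 CPM in AtBD (log2 fold change 1.75, SE 0.34, adjusted p = 0.0014), and with it the summed share of the list was 0.924%, 0.817% and 0.788% of counts in AtBDtr, against 0.425%, 0.505% and 0.339% in AtBD. Of 7 genes of the embryo epidermis 2 rose, none fell and the median was 0.57, or -0.14 on library totals alone. PDF1 had 1964, 2010.3 and 944 CPM in AtBDtr, against 580.1, 515 and 396 CPM in AtBD (log2 fold change 1.72, SE 0.36, adjusted p = 0.0023), and its regulator PDF2 rose by 1.46.

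Markers of the silique wall and its opening zone were lower in AtBDtr, with 7 of 9 tested genes lower and none higher (median -2.09). SHP2, a MADS factor of the valve margin and the ovule, had 0.547, 0.692 and 1.82 CPM in AtBDtr, against 18.1, 18.9 and 19.6 CPM in AtBD (log2 fold change -4.16, SE 0.57, adjusted p = 7.7e-05). FUL, ALC and the polygalacturonase gene ADPG1 fell by 2.55, 2.09 and 2.45. The summed share of these 10 genes was 0.00131% to 0.00189% of counts in AtBDtr and 0.0110% to 0.0166% in AtBD, the highest in AtBD replicate 3, and its part in other results was not tested. Vascular markers split: of 10, 5 fell, none rose. The cellulose synthase genes of xylem walls IRX1, IRX3 and CESA4 fell by 5.68, 3.27 and 4.09 and the phloem lectin gene PP2-A1 by 3.52, while SUC2, the phloem sucrose loader, had 355, 347 and 338 CPM in AtBDtr, against 300.3, 294 and 165 CPM in AtBD (adjusted p = 0.15). The cell death list, proteases and nucleases of tissues that die during development, had 9 of 10 genes lower and none higher (median -3.08). CEP1, a cysteine protease, had 10.4, 14.2 and 17.03 CPM in AtBDtr, against 286, 269 and 176 CPM in AtBD (log2 fold change -4.13, SE 0.26, adjusted p = 9.1e-08). PASPA3, SCPL48 and the nuclease gene BFN1 fell by 4.31, 3.72 and 3.08, and the senescence regulator NAC092 by 4.11. The mean share of the list was 21.2-fold lower in AtBDtr.

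Aliphatic glucosinolates are defence compounds of the mustard family that are made in maternal tissue and carried into seeds. Of 18 listed genes of their synthesis, its regulation and transport 16 were tested, 12 fell and none rose, with a median of -3.10. MAM1, a chain elongation enzyme, had 9.93, 11.1 and 12.01 CPM in AtBDtr, against 86.7, 96.1 and 90.67 CPM in AtBD (log2 fold change -3.05, SE 0.17, adjusted p = 7.6e-08), with little spread within either group. IPMDH1, BCAT4 and MAM3 of the same branch fell by 4.03, 3.82 and 3.25, and CYP79F1, CYP83A1 and SOT17 of core synthesis by 3.54, 3.43 and 3.57. Of 13 jasmonate genes 8 fell and 1 rose. LOX2, a lipoxygenase of jasmonate synthesis, had 7.43, 10.03 and 6.56 CPM in AtBDtr, against 81.6, 98.9 and 97.7 CPM in AtBD (log2 fold change -3.53, SE 0.25, adjusted p = 1.7e-07). JMT, which methylates jasmonate, had 0, 0 and 0.882 CPM in AtBDtr, against 36.1, 27.3 and 19.02 CPM in AtBD. VSP1 and VSP2, induced by jasmonate, fell by 4.04 and 3.44 and the factor MYC2 by 1.51, while the repressor gene JAZ10 rose by 1.08. Of 10 genes induced by sulfur limitation 4 fell and none rose. LSU2 had a log2 fold change of -1.94, and the sulfate reductase genes APR1, APR2 and APR3 had log2 fold changes of -1.63, -1.51 and -1.63.

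Genes of protein folding in the endoplasmic reticulum, where storage proteins are made, depended on the scaling. Of 22 tested 1 rose (4.55%) and 3 fell (13.6%), against 12.8% and 16.9% of all genes tested, with a median of -0.20. On library totals alone none of the 22 rose and 12 fell (median -0.87). The chaperone gene HSP90.7 had 32.8, 44.1 and 84.03 CPM in AtBDtr, against 198, 193 and 174 CPM in AtBD (log2 fold change -1.81, SE 0.32, adjusted p = 0.00075). The calreticulin gene CRT1B and the disulfide isomerase gene PDIL1-3 fell by 0.97 and 0.64, ERO1, an oxidoreductase, rose by 0.72, and these 3 calls were lost under 4, 8 and 11 of 18 other settings. Among 13 hypoxia and fermentation genes 2 rose (15.4%) and 3 fell (23.1%), near the shares over all genes tested. ADH1 had 369, 289.9 and 132 CPM in AtBDtr, against 91.4, 93.9 and 72.5 CPM in AtBD (log2 fold change 1.62, SE 0.33, adjusted p = 0.0019), while PDC1, the step before it, had 2.27, 4.21 and 8.05 CPM in AtBDtr, against 26.7, 23.4 and 15.9 CPM in AtBD (log2 fold change -2.17, SE 0.39, adjusted p = 0.00081), and the acyl desaturase gene AT1G43800 fell by 2.46. HB1, a hemoglobin gene, had 0, 1 and 2 counts in AtBDtr, against 21, 24 and 35 counts in AtBD. Of 11 low sugar genes 2 rose and 4 fell. DRM1 rose by 2.07 and ASN1, an asparagine synthetase, by 5.22, a call lost without AtBDtr replicate 1, and DIN10, BGLU30 and EXO fell by 3.02, 2.62 and 2.37. Of 13 wall loosening genes 2 rose (15.4%) and 3 fell (23.1%), also near the shares over all genes tested. XTH25, a xyloglucan-modifying enzyme, had 4221, 1416 and 385 CPM in AtBDtr, against 84.8, 87.98 and 135 CPM in AtBD (log2 fold change 4.29, SE 0.82, adjusted p = 0.0012), and XTH24, XTH9 and the expansin gene EXPA10 fell by 2.93, 3.89 and 2.41.

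Of 27 cell division genes 14 fell in AtBDtr and 1 rose, and 26 fold changes were negative (median -2.54). KN, the syntaxin of the dividing cell plate, had 0.469, 3.52 and 4.74 CPM in AtBDtr, against 32.2, 25.9 and 41.3 CPM in AtBD (log2 fold change -3.47, SE 0.56, adjusted p = 0.00034). PCNA1 and PCNA2, the clamps of DNA replication, fell by 3.65 and 2.57, the kinesin gene HIK by 3.80 and the kinase gene AUR1 by 3.66. The cyclin gene CYCB3;1 had 4.22, 0.923 and 1.43 CPM in AtBDtr, against 0.154, 0.198 and 0.566 CPM in AtBD (adjusted p = 0.026, not below 0.05 without AtBDtr replicate 1). Of 22 core histone genes 11 fell and 1 rose (median -0.71). The H3 gene AT1G09200 had 0.0782, 3.23 and 5.73 CPM in AtBDtr, against 32.1, 27.7 and 28.9 CPM in AtBD (log2 fold change -3.25, SE 0.64, adjusted p = 0.0016), and AT3G46320, AT5G10390 and HTA2 fell by 2.11, 1.51 and 1.23. HTA1, an H2A gene, had 252, 279.5 and 116 CPM in AtBDtr, against 96.8, 91.7 and 106 CPM in AtBD (log2 fold change 1.13, SE 0.28, adjusted p = 0.0063). Histone genes are near-copies of one another, so their counts are uncertain.

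Cytosolic ribosomal protein genes were examined because RPL18B is one of them. Of 208 listed 195 were tested, 44 rose, 2 fell and 167 fold changes were positive, with a median of 0.36 that turned to -0.36 on library totals alone, where 2 rose and 27 fell. With RPL18B included the list held 3.16%, 3.52% and 4.29% of counts in AtBDtr, against 2.66%, 2.65% and 3.32% in AtBD, which overlap. Without the RPL18 family it held 1.701%, 2.25% and 2.64% of counts in AtBDtr, against 2.51%, 2.50% and 3.16% in AtBD. AT5G48760, of the L13 family, had 83.7, 104 and 92.2 CPM in AtBDtr, against 39.8, 39.4 and 34.8 CPM in AtBD (log2 fold change 1.298, SE 0.20, adjusted p = 0.00021). AT2G32220 (L27e) rose by 1.296 and AT2G36160 (S11) by 0.96. AT3G28500, a 60S acidic protein, had 5.94, 11.6 and 8.1 CPM in AtBDtr, against 25.5, 28.3 and 33.6 CPM in AtBD (log2 fold change -1.76, SE 0.30, adjusted p = 0.0005).

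The 10 largest rises, among called protein-coding genes of a mean log2 CPM of at least 2 whose groups did not overlap, were highest in AtBDtr replicate 1 in every case. The glycine-rich protein gene AT5G35660 had 451, 23.9 and 6.78 CPM in AtBDtr, against 0.192, 0 and 0 CPM in AtBD. LCR67, a defensin-like gene, had 2598, 117 and 177 counts in AtBDtr and 2, 0 and 0 in AtBD. The LEA gene M10 had 129, 9.11 and 2.92 CPM in AtBDtr, against 0.307, 0 and 0 CPM in AtBD. The other 7 were GEA6, HSP17.6A, HSP17.4, ATECP31, AT3G22490, AT4G36600 and AT1G17010, with fitted log2 fold changes of 5.66 to 9.82. Each remained past the threshold without AtBDtr replicate 1, with smaller values, for example 5.73 in place of 8.70 for M10 and 3.32 in place of 5.66 for HSP17.4. By annotation M10, GEA6, ATECP31 and AT4G36600 are LEA genes, AT3G22490 encodes a seed maturation protein and AT1G17010 an oxygenase.

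The 10 largest falls by the same criteria were of genes with few or no counts in AtBDtr replicates 1 and 2. GILT (AT4G12960), a thiol reductase family gene, had 0, 0 and 9.92 CPM in AtBDtr, against 312, 278 and 318 CPM in AtBD. Its relative AT4G12890 had 0, 0 and 0.2204 CPM in AtBDtr, against 9.57, 10.5 and 12.4 CPM in AtBD, the largest fitted fall among them (log2 fold change -6.96, SE 0.69, adjusted p = 3.6e-06). AT1G62220, an uncharacterized gene, had 1.02, 3.58 and 23.3 CPM in AtBDtr, against 828, 741 and 649 CPM in AtBD. The esterase gene MES6 had 0.313, 0.577 and 11.5 CPM in AtBDtr, against 299, 291 and 185 CPM in AtBD. In all 4 genes AtBDtr replicate 3 was the highest of the AtBDtr libraries and still far below AtBD. The glycosyltransferase gene UGT73C2, the laccase gene LAC12, the endoglucanase gene GH9C1, the subtilase gene ATSBT5.2 and the pollen allergen family gene AT5G05020 fell by 6.52, 6.51, 6.11, 6.08 and 5.90. JMT, whose values are given above, had a log2 fold change of -6.38.

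The Col-0 pair gave the same comparison in other libraries. AtWTtr against AtWT called 6623 genes (34.2%), 2931 higher (15.1%) and 3692 lower (19.1%). Of the genes higher in AtBDtr, 1895 were also higher in AtWTtr, which is 76.4% of the 2479 rises in the mutant and 64.7% of the 2931 in Col-0. Of the genes lower in AtBDtr, 2630 were also lower in AtWTtr, 80.3% of the falls in the mutant and 71.2% of those in Col-0, and no gene was called in opposite directions. No gene passed the test of the difference between the pairs (edgeR, adjusted p under 0.05), 805 (4.15%) had an unadjusted p under 0.05, and DESeq2 called 4. A p that misses the threshold does not show that the pairs are alike.

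By list, AtWTtr against AtWT gave 13 of 13 storage protein genes higher (median 2.15), 11 of 14 oil body genes higher and 1 lower (median 1.79) and 19 of 20 LEA genes higher (median 2.66). Suberin had 13 of 14 lower (median -3.82), nutrient transport 16 of 19 lower and 1 higher (median -2.94), cell death 10 of 10 lower (median -3.45) and mucilage 18 of 24 lower (median -2.21). Photosynthesis had 42 of 57 genes lower in the mutant pair, against 18 of 57 in Col-0 (median -0.86), and no photosynthesis gene had an unadjusted p under 0.05 for the difference. All 57 were lowest in AtBDtr replicate 1 among the AtBDtr libraries, and the values without that library are given above. Sulfur limitation had 4 of 10 genes lower in the mutant pair, against 9 of 10 in Col-0 (median -2.48), and 5 of its genes had an unadjusted p under 0.05 for the difference, with none adjusted. For glucosinolates 11 of 16 were lower (median -2.15) and 7 had such a p. So did 6 of 24 mucilage, 4 of 19 nutrient transport, 4 of 16 flavonoid and 3 of 13 storage protein genes. The suberin and cell death lists had 1 each and the oil body and LEA lists none, against 4.15% of all genes tested. The blue-light receptor gene FKF1 rose in both pairs, by 0.96 in AtBDtr and 2.70 in AtWTtr. Its difference of -1.74 (edgeR, unadjusted p = 0.00032) did not pass after adjustment. FKF1 was picked because this p was among the smallest of 19376 genes, so it is no evidence of a difference between the genotypes.

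**Figure D5:**
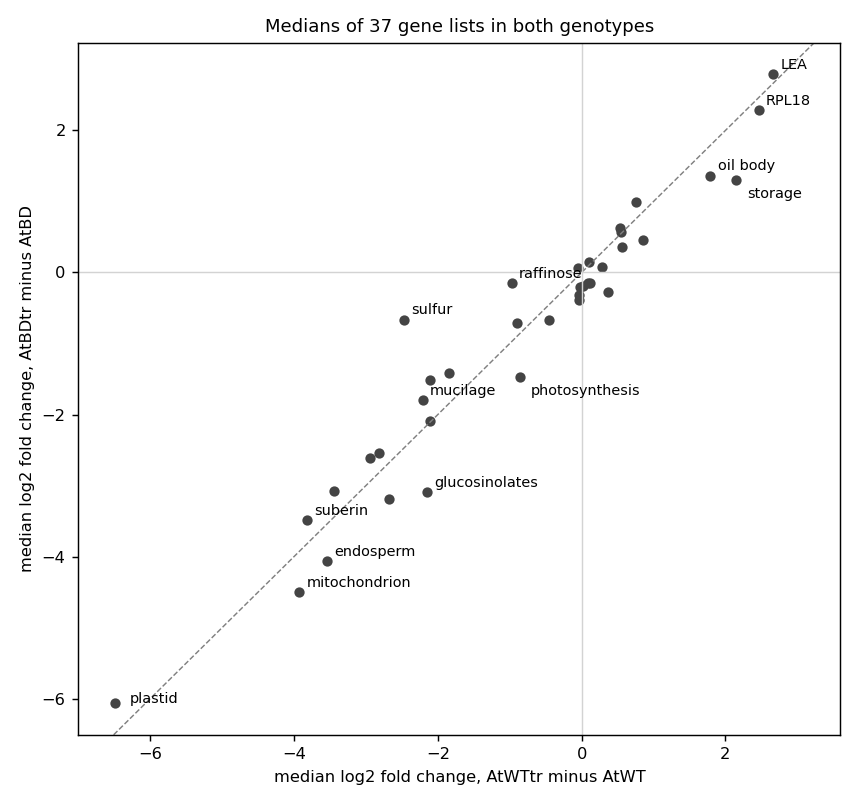
Median log2 fold change of the tested members of 37 gene lists in AtWTtr against AtWT (x axis) and in AtBDtr against AtBD (y axis), 1 point per list, with the dashed line where both are equal. Most lists lie near the line, sulfur limitation lies above it (-0.67 in the mutant, -2.48 in Col-0) and photosynthesis below it (-1.47 in the mutant, -0.86 in Col-0), and on library totals alone all mutant medians shift down, 7 of them to a changed sign.

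Genes that rose and genes that fell differed in size and structure. Among the fifth of tested genes with the shortest coding length (66 to 642 bases) 10.2% rose and 20.8% fell, and among the fifth with the longest (1875 to 16203 bases) 19.0% rose and 8.99% fell. Of 2843 genes with no intron 8.20% rose and 23.4% fell, and of 3152 genes with at least 10 introns 19.0% rose and 8.82% fell. Across 18910 genes the log2 fold change and the log coding length had a Spearman correlation of 0.165 (Pearson 0.139), given as a description because genes are not independent replicates.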

How the data were processed

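The authors deposited 1 table of read counts per gene and library (33602 genes). Per the submitters' processing notes TopHat, Cufflinks, Cuffdiff and the TAIR10 build were used; the program behind the counts is not given in the sources used here. The deposited columns split by strand held nearly equal counts (50.4% to 50.7% on 1 strand), so the unstranded counts were used and antisense or overlapping genes cannot be separated. Rows that name no gene stayed out of library sizes; in the 6 libraries compared, 0.659% to 8.88% of reads lay in no gene and 1.40% to 13.8% had several matches. The authors' FPKM table was not used here.

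From the 12 AtBDtr, AtBD, AtWTtr and AtWT libraries, edgeR 4.0.16 (R 4.3.3) was run with filterByExpr (19376 genes kept), TMM scaling and a quasi-likelihood fit with 1 coefficient per group, and p-values were adjusted over all genes by Benjamini-Hochberg at 0.05. A value called log2 fold change is AtBDtr minus AtBD unless another pair is named. The SE beside it is its absolute value divided by the square root of the test's F statistic. This SE is approximate, above all for genes near 0 counts in a group. In simulated data (18807 genes) 100 genes were changed 2-fold and 100 genes 4-fold. Of these 18% and 77% were called, and 5.94% of calls were unchanged genes. Far more genes (5755) were called in the real comparison, so the adjusted threshold was not the same. The simulated percentages therefore do not give the recovery in the real comparison. Shares of counts were compared by an exact two-sided permutation test, whose smallest p is 0.1.

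The groups compared, the gene lists and the tests were chosen with earlier results of these data known. Genes are named by a rule: BADC1, BADC3 and the RPL18 family, the 10 largest rises and falls, and up to 4 members per list with the smallest adjusted p. Other members named were chosen after their values were seen. Gene descriptions and promoters came from RefSeq (TAIR10.1), in which 32835 of the 33602 genes were found; plastid and mitochondrial identifiers are given as deposited. Alternatives were DESeq2 1.42.0, other scalings and filters, counts of 1 strand, only the libraries compared, a replicate block and leaving out libraries. No set test was run.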

Additional observations from a re-analysis of the deposited data

How the results depend on the processing

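The count of genes called between AtBDtr and AtBD stayed within 1.5 times 5755 under all settings but 1, and no gene called under both settings turned direction except 1 with counts of 1 strand. It ranged from 4177 to 5465 with 1 library left out in turn. Leaving out AtBDtr replicate 1 together with AtBD replicate 3, a setting chosen after seeing the data, gave 3584. Library totals alone, also added after seeing the data, gave 424 higher and 7393 lower, 5.42% of the calls higher in place of 43.1%. For AtWTtr against AtWT the count ranged from 4891 to 6178 with 1 library left out and was 10640 on library totals alone. The test of the difference between the pairs called 0 to 0 genes with 1 library left out and 4 with DESeq2. Replicate numbers did not pair the libraries (correlations of same-numbered deviations -0.040, -0.043 and -0.055), and the replicate block called 4907 genes.

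Of 215 named genes, 167 kept both their direction and their side of the threshold under every alternative that gave a value for them (15 to 18). On library totals alone these log2 fold changes changed sign: BADC1 -0.60, RPL18C -0.48, FAB2 -0.10, DGAT1 -0.0476, CHS -0.63 and SUC2 -0.25. With 1 library left out, BADC1 ranged from -0.18 (without AtBDtr replicate 1) to 0.42, BADC3 from -0.88 to 1.17 (without AtBD replicate 3, and 0.24 without AtBDtr replicate 3), WRI1 from -0.33 to 0.04 (without AtBDtr replicate 1), RBCS1A from -0.39 to 0.22 (without AtBDtr replicate 1, and 0.02 without AtBD replicate 1) and CHS was -0.02 without AtBD replicate 3 and -0.17 without AtBDtr replicate 2. Without AtBDtr replicate 1 and AtBD replicate 3 the values were -0.29 for BADC1, 1.23 for BADC3, 0.0935 for WRI1 and 0.11 for RBCS1A. With counts of 1 strand BADC3 was 0.16. The cause was not tested. The share difference of the LEA list, 0.693 points, was 0.351 without AtBDtr replicate 1.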

Other observations

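Families defined by identical gene descriptions in the annotation, some of which hold members of the lists above, also differed. Some cell wall and secreted protein families had many more falls than rises in AtBDtr. Of 27 peroxidase genes tested 16 fell and 2 rose (median log2 fold change -3.58), and of 52 genes of the lipid transfer and 2S albumin superfamily 32 fell and 2 rose (median -2.80). Of 41 GDSL lipase genes 20 fell and 3 rose (median -2.17), of 30 invertase and pectin methylesterase inhibitor genes 13 fell and 1 rose (median -2.34), and of 14 X8 domain genes 8 fell and none rose (median -3.28). Other such families were near balance. Of 51 hydroxyproline-rich glycoprotein genes 12 fell and 14 rose (median 0.16), and of 13 subtilase genes 3 fell and 2 rose (median -0.06).

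Of 173 pentatricopeptide repeat genes, most of which act on organelle RNA, 10 rose (5.78%) and none fell (median 0.41), of 19 DEAD-box helicase genes 6 rose and none fell (median 0.56), and of 25 CCCH zinc finger genes 10 rose and 1 fell (median 0.47). Of 100 genes with an RNA recognition motif 14 rose and 3 fell (median 0.32). All 4 of these medians are smaller in size than the shift of the typical gene on library totals alone (-0.73 in place of -0.03), so their sign rests on the scaling. The families were chosen after seeing the data, and the share of calls over all genes was 12.8% higher and 16.9% lower.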
